A study of Homo sapiens with 12 samples.

Results

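The 9 genes RBM23, AOC2, RPL22L1, HAVCR1, PTGFRN, CSTB, MALT1, SUSD2 and GLRX were those whose RNA set 1 of 4 stable HepG2 lines, named Z9, apart from the rest. They are 9 of the 26485 genes in the count table, and all 9 were among the 15289 genes with enough counts to test. HepG2, the parent of all lines, is an established cell line from a human liver tumour that still secretes albumin and other plasma proteins. The Z9, Z5 and Z2 lines had each been transfected with a CRISPR vector carrying a different guide against ZHX3 (sgZHX3-9, sgZHX3-5 and sgZHX3-2), and the Empty line with an empty vector. All 4 lines were selected with blasticidin and share the HepG2 background. Whether a line is 1 clone or a pool is not given in the sources used here, and each line was seeded in 3 wells of a plate. The wells are the replicates (n = 3 per line, wells a, b and c), so p-values measure the spread between wells and not between independently made lines. Differences between lines therefore cannot be told apart from differences in how each line was derived.

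The genes were chosen from the counts themselves. RBM23, AOC2 and RPL22L1 were picked because they were higher, and HAVCR1, PTGFRN and CSTB because they were lower, in Z9 when it was set against the Z5, Z2 and Empty lines one at a time. MALT1, SUSD2 and GLRX were picked because they had moved in opposite directions from Empty, down in Z9 and up in Z2. For the first 6 genes every comparison with Z9 was thus used in the choice, and for the last 3 the comparisons among Z9, Z2 and Empty. Those values are given as descriptions. Applied to 11019 protein-coding genes averaging 1 log2 CPM or more (CPM being a gene's counts scaled to library size), and asking for an adjusted p under 0.05 in each comparison, the first condition was met by 25 genes that were higher in Z9 and by 71 that were lower. By the smallest of their 3 log2 fold changes, RBM23 ranked 1, AOC2 ranked 2 and RPL22L1 ranked 7 of the 25. HAVCR1 ranked 1, CSTB ranked 25 and PTGFRN ranked 56 of the 71. SUSD2, at rank 20, and GLRX, at rank 58, also met the condition for lower in Z9. MALT1 missed it through its comparison with Z5 (adjusted p = 0.0513). The opposite movement was found in 3 of 15289 genes, and these were MALT1, SUSD2 and GLRX. The threshold fell between MYH3 (largest adjusted p = 0.0492) and TCF7 (0.0509) for higher genes. Among lower genes it fell between SCD (0.0494) and TMEM97 (0.0509), and for opposite movement between GLRX (0.0418) and PLEKHA2 (0.0628).

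The 9 genes belong to no single pathway. RBM23 encodes an RNA-binding protein related to the splicing factor RBM39, and aryl sulfonamide drugs bring both proteins to the DCAF15 ubiquitin ligase. AOC2 encodes a copper-dependent amine oxidase first described in retina, and RPL22L1 a paralog of the ribosomal protein RPL22. HAVCR1 encodes TIM-1, also called KIM-1, a surface receptor for phosphatidylserine that was described as a hepatitis A virus receptor and is induced in injured kidney tubule. PTGFRN encodes an immunoglobulin-family membrane protein that binds the tetraspanins CD9 and CD81. CSTB encodes cystatin B, an intracellular inhibitor of papain-like cathepsins. MALT1 is the paracaspase of the CARD-BCL10-MALT1 complex upstream of NF-kappaB. SUSD2 encodes a sushi-domain membrane protein that binds galectin-1, and GLRX encodes glutaredoxin-1, which removes glutathione from modified proteins. ZHX3 itself encodes a zinc-finger and homeobox protein known as a transcriptional repressor.

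Library totals ranged from 50864744 to 65428204 counts. The gene named by the vectors, ZHX3, was at 34.3 ± 0.713 CPM in Z9, 32.9 ± 0.505 in Z5, 34.5 ± 0.620 in Z2 and 33.0 ± 0.421 in Empty (SD, n = 3 wells each). Its log2 fold change of Z9 against Empty was 0.054 ± 0.050 (SE, edgeR adjusted p = 0.490), and a gene-level count does not show a small insertion or deletion or the protein. All 7 hepatoma markers, which included ALB, AFP and HNF4A, were above 1 CPM in every well. Their summed level was 41231 to 42717 CPM in Z9, 43143 to 44798 in Z5, 42768 to 47257 in Z2 and 46992 to 48714 in Empty, so it was lowest in the Z9 wells. The summed leukocyte markers, nearly all of them LYZ, were at 1576 to 1718 CPM in Z9, against 1770 to 2074 in the other 3 lines, while PTPRC had 0 counts in 10 of 12 wells. Of each of the fibroblast, endothelial and kidney tubule lists, 1 gene was above 1 CPM in every well. The part of these differences in the results below was not tested. In bulk RNA, fewer cells with a transcript and less of it per cell cannot be told apart.

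The sequences just upstream of the starts of RBM23 and AOC2, which were higher in Z9, and of PTGFRN, which was lower, are shown because they differ in 2 promoter motifs, the CCAAT box and the TATA box. They are read 5′ to 3′ on each gene's own strand from the RefSeq promoter table (GRCh38.p14), for which 7 of the 9 genes had an entry, the others being CSTB and SUSD2. Capitals mark CCAAT (or its reverse complement ATTGG) and TATAAA. The RBM23 stretch is chr14:22919185-22919399 (minus strand), that of AOC2 is chr17:42844330-42844579 (plus strand) and that of PTGFRN is chr1:116909666-116909915 (plus strand).
RBM23: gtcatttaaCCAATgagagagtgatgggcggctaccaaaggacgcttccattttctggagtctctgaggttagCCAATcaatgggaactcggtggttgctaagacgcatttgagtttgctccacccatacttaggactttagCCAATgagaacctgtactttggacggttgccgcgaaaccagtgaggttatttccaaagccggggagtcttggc
AOC2: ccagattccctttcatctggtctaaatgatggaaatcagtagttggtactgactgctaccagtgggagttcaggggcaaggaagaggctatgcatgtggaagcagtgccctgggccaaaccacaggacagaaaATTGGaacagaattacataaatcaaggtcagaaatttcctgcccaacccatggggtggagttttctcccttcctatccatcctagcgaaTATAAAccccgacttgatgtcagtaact
PTGFRN: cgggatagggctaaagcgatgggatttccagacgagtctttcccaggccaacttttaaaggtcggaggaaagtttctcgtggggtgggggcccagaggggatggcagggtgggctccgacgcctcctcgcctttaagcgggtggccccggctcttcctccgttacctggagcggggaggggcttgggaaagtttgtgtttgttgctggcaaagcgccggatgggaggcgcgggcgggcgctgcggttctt

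In the window from 250 bases before to 50 bases after the RefSeq start, RBM23 held 4 CCAAT matches on either strand, at -241, -177, -108 and -25. At least 4 were present in 0.991% of 35116 promoters. AOC2 held 1 CCAAT at -117, on the opposite strand, and a TATAAA at -28. RPL22L1 held a TATAAA at -30, and TATAAA was present in 11.5% of promoters on either strand. GLRX held CCAAT at -233 and -167, where 10.8% of promoters held at least 2, and MALT1 held 1 at 12 bases after the start, where 34.6% held at least 1. HAVCR1 and PTGFRN held neither motif. The HAVCR1 window, chr5:157059067-157059366, is at an inner start, as the RefSeq gene runs to 157069407 on the minus strand. The sequence at that outer end was not searched. The AP-1 motif TGANTCA, present in 7.71% of promoters, was in none of the 7 windows. The motifs did not overlap one another in these windows. No motif was present in the windows of all 3 genes higher in Z9, and a match is a run of letters in a window and not a shown site.

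RBM23 was higher in every Z9 well than in any other well. It stood at 4.61, 3.70 and 4.16 CPM in Z9 wells a to c, at 2.01, 2.61 and 2.03 in Z5, at 2.57, 2.56 and 2.75 in Z2, and at 2.30, 1.61 and 3.12 in Empty. The means were 4.15 ± 0.456 CPM in Z9, 2.22 ± 0.338 in Z5, 2.63 ± 0.106 in Z2 and 2.34 ± 0.758 in Empty (SD, n = 3 wells each). Empty wells spread most widely, and the Z5, Z2 and Empty wells overlapped. The log2 fold changes of Z9 were 0.82 against Empty, 0.66 against Z2 and 0.91 against Z5, all used in the choice. Comparisons outside the choice did not pass the test. Z5 minus Empty was -0.090 (95% interval -0.49 to 0.31, edgeR adjusted p = 0.802). Z2 minus Empty was 0.16 (-0.24 to 0.55, edgeR adjusted p = 0.591). RBM23 lies on chromosome 14 from 22893206 to 22919184 (GENCODE 29, GRCh38, minus strand, 18 exon blocks). Its level was low, at rank 11252 of 15289 tested genes by mean CPM, and its lowest well had 93 counts. Of its exon bases, 186 are shared with the antisense RNA PRMT5-AS1, and neither the annotation nor whether counting used strand or reads with several matches is given in the sources used here, so the level of RBM23 is uncertain. PRMT5-AS1 was at 0.867, 0.795 and 0.813 CPM in Z9 wells and between 0.551 and 0.941 in the other 9 wells. Its own log2 fold change of Z9 against the mean of the other lines was 0.29 (edgeR adjusted p = 0.358).

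AOC2 stood at 7.27, 6.34 and 8.36 CPM in Z9 wells, at 5.01, 4.95 and 5.14 in Z5, at 5.00, 4.78 and 4.84 in Z2, and at 4.91, 5.13 and 4.76 in Empty. Its means were 7.32 ± 1.01 CPM in Z9, 5.03 ± 0.0945 in Z5, 4.87 ± 0.112 in Z2 and 4.93 ± 0.185 in Empty (SD, n = 3 wells each). The 9 wells outside Z9 lay within 4.76 to 5.14 CPM, while the Z9 wells differed from one another by more than that whole span. The log2 fold changes used in the choice were 0.57 against Empty, 0.59 against Z2 and 0.54 against Z5. Outside the choice, Z5 minus Empty was 0.029 (95% interval -0.19 to 0.25, edgeR adjusted p = 0.889) and Z2 minus Empty was -0.017 (-0.24 to 0.21, edgeR adjusted p = 0.930). AOC2 lies on chromosome 17 from 42844600 to 42850707 (plus strand), next to its close paralog AOC3. Reads that match both could have been split between them. AOC3, which encodes the vascular adhesion protein VAP-1, was at 39.2 ± 2.47 CPM in Z9, 45.5 ± 5.11 in Z5, 42.2 ± 2.73 in Z2 and 29.3 ± 1.80 in Empty. Its log2 fold change of Z9 against the mean of the other 3 lines was 0.031 ± 0.064 (SE, edgeR adjusted p = 0.813). Against Empty alone AOC3 rose in Z9 (0.42, edgeR adjusted p = 0.00137).

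RPL22L1 stood at 81.4, 77.3 and 72.7 CPM in Z9 wells, at 60.8, 58.5 and 50.2 in Z5, at 68.7, 56.6 and 56.1 in Z2, and at 54.8, 51.1 and 54.1 in Empty. The Z2 well a came nearest to Z9. Means were 77.2 ± 4.35 CPM in Z9, 56.5 ± 5.58 in Z5, 60.5 ± 7.10 in Z2 and 53.3 ± 1.94 in Empty (SD, n = 3 wells each). The log2 fold changes of Z9 were 0.53 against Empty, 0.35 against Z2 and 0.45 against Z5, from the choice. Z5 minus Empty was 0.083 (95% interval -0.087 to 0.25, edgeR adjusted p = 0.535) and Z2 minus Empty was 0.18 (0.011 to 0.35), which missed the threshold after adjustment (edgeR adjusted p = 0.112). RPL22, whose protein in mouse represses Rpl22l1 RNA, was at 403 ± 5.74 CPM in Z9, 422 ± 7.14 in Z5, 386 ± 69.2 in Z2 and 439 ± 5.62 in Empty. The difference of RPL22 in Z9 from the mean of the other lines was -0.042 ± 0.073 (SE, edgeR adjusted p = 0.774). RPL22L1 lies on chromosome 3 from 170864875 to 170870483 (minus strand). For the 3 genes higher in Z9, then, no difference among Z5, Z2 and Empty passed the edgeR test as fitted to the 4 line means.

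**Figure D1:**
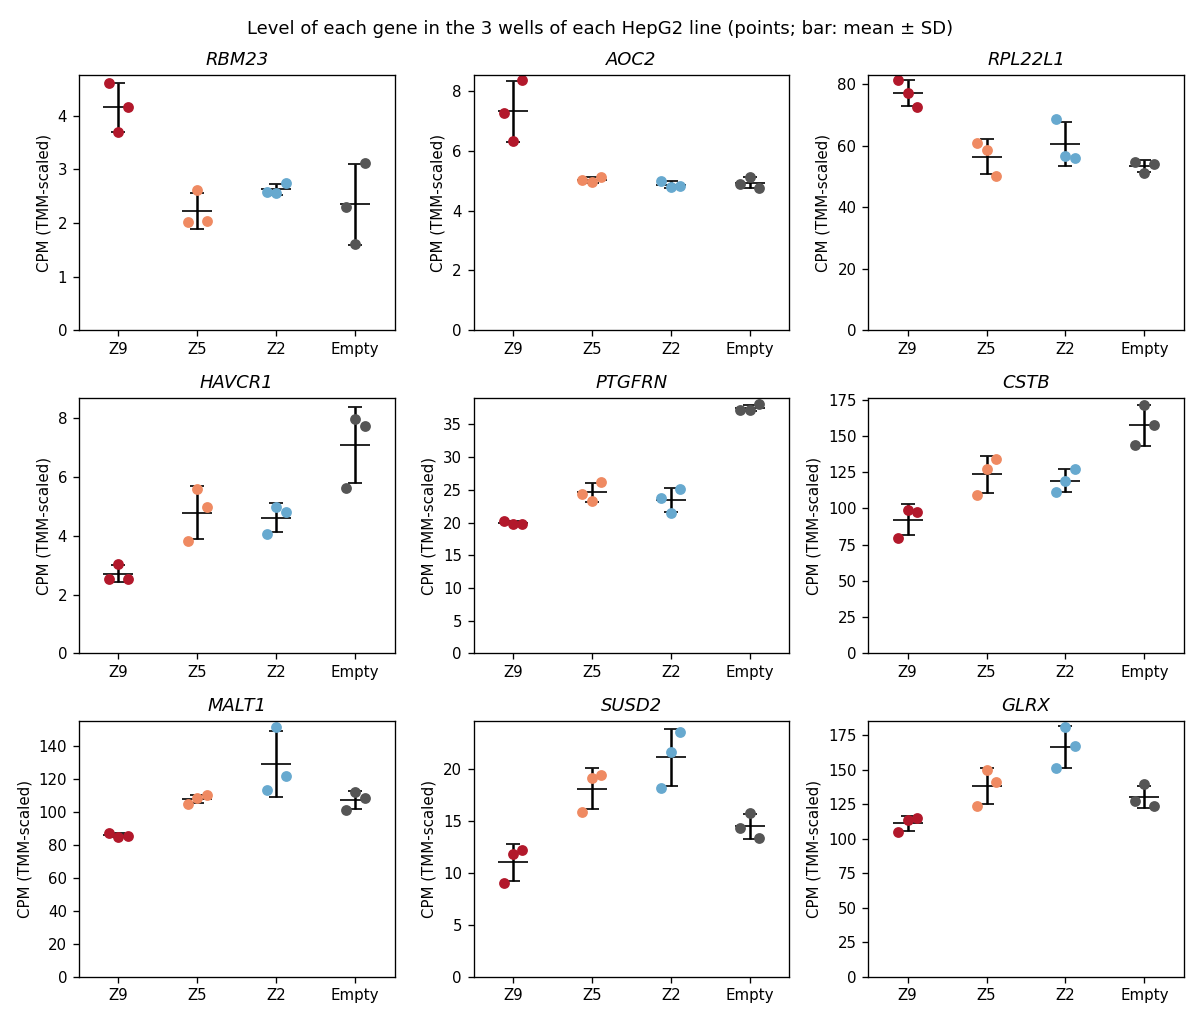
CPM on TMM-scaled library sizes (y axis, from 0) of each of the 9 genes in wells a, b and c (points, left to right) of the Z9, Z5, Z2 and Empty lines (x axis), with the mean and SD as bars. Z9 wells lie above all others in the top row and below all others in the lower 2 rows, and Empty is highest for HAVCR1, PTGFRN and CSTB while Z2 is highest for MALT1, SUSD2 and GLRX.

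The 3 genes chosen as lower in Z9 were also lower in Z2 and Z5 than in Empty. The choice did not require this, but it used the same Empty wells, so these comparisons were not independent of it. HAVCR1 stood at 2.54, 3.04 and 2.53 CPM in Z9 wells, at 3.82, 5.58 and 4.96 in Z5, at 4.06, 4.98 and 4.82 in Z2, and at 5.61, 7.95 and 7.72 in Empty. The Z9 wells were lowest, the Z5 and Z2 wells overlapped each other, and every Z5 and Z2 well lay under every Empty well. Means were 2.71 ± 0.292 CPM in Z9, 4.79 ± 0.894 in Z5, 4.62 ± 0.490 in Z2 and 7.10 ± 1.29 in Empty (SD, n = 3 wells each). HAVCR1 fell in Z5 against Empty (log2 fold change -0.57 ± 0.15, SE, edgeR adjusted p = 0.0157) and in Z2 against Empty (-0.62 ± 0.15, edgeR adjusted p = 0.00655). Z9 against Empty, used in the choice, was -1.39. The Z5 call was lost without Empty b (edgeR adjusted p = 0.0755), without Empty c (0.0558) and without Z5 a (0.0636), while the direction stayed. HAVCR1 lies on chromosome 5 from 157029413 to 157059119 (minus strand), with 138 counts in its lowest well, and 1 annotated pseudogene bears its name.

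PTGFRN stood at 20.2, 19.8 and 19.8 CPM in Z9 wells, at 24.3, 23.4 and 26.2 in Z5, at 23.8, 21.5 and 25.1 in Z2, and at 37.2, 37.2 and 38.1 in Empty. The Empty wells stood well apart from the rest, and the nearest well to Z9 was Z2 b. Means were 19.9 ± 0.235 CPM in Z9, 24.6 ± 1.46 in Z5, 23.4 ± 1.83 in Z2 and 37.5 ± 0.520 in Empty (SD, n = 3 wells each). PTGFRN fell in Z5 (-0.61 ± 0.064, SE, edgeR adjusted p = 4.31e-06) and in Z2 (-0.68 ± 0.065, edgeR adjusted p = 1.14e-06) against Empty. Z9 against Empty was -0.91, and the steps that set Z9 apart from the other guide lines were smaller, -0.30 against Z5 and -0.23 against Z2. PTGFRN lies on chromosome 1 from 116910057 to 116990358 (plus strand).

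CSTB stood at 79.9, 99.0 and 97.2 CPM in Z9 wells, at 109, 127 and 134 in Z5, at 111, 119 and 127 in Z2, and at 143, 171 and 157 in Empty. No well of Z9 overlapped another line, and no Z5 or Z2 well reached the Empty wells. Means were 92.0 ± 10.6 CPM in Z9, 123 ± 12.7 in Z5, 119 ± 7.83 in Z2 and 157 ± 14.1 in Empty (SD, n = 3 wells each). CSTB fell in Z5 (-0.35 ± 0.092, SE, edgeR adjusted p = 0.0195) and in Z2 (-0.40 ± 0.092, edgeR adjusted p = 0.00621) against Empty, and the value used in the choice was -0.77 for Z9. The Z5 call was lost without Empty b (edgeR adjusted p = 0.0793), Z2 b (0.0503), Z5 a (0.0595) or Z5 b (0.0523). CSTB lies on chromosome 21 from 43772511 to 43776445 (minus strand). Per kilobase of annotated exon, its mean of 31.3 CPM was the highest of the 9 genes, and that of RBM23, 0.202 CPM, the lowest.

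Thus, of the 6 genes chosen for Z9, 3 were called lower in Z2 than in Empty, where 11.5% of all genes tested were lower and 23.9% were called in either direction. The same 3 of 6 were called lower in Z5 than in Empty, where 6.68% of all genes were lower and 15.0% were called in all. Over all genes the Z2 calls numbered 3654, and 2130 without Empty a, and the Z5 calls 2286, and 1105 without Empty a, 1146 without Z5 b and 1087 without Z5 c. These comparisons share the Empty wells with each other and with those that chose the genes. In this fit neither Z2 nor Z5 gave a call for RBM23, AOC2 or RPL22L1. Between Z5 and Z2, 0 of the 9 genes passed (edgeR adjusted p from 0.408 to 0.925), of 1 gene, 0.00654%, called among all those tested. Before adjustment 1571 genes had a p under 0.05 in edgeR, MALT1 (-0.26) and GLRX (-0.27) among them, and the DESeq2 Wald test called 11 genes. Without Z2 a, 153 genes passed, MALT1 (-0.35, edgeR adjusted p = 0.0380) and GLRX (-0.33, 0.0445) among them. The 95% interval of the Z5 minus Z2 difference ran from -0.28 to 0.38 for HAVCR1, from -0.066 to 0.21 for PTGFRN and from -0.15 to 0.25 for CSTB.

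**Figure D2:**
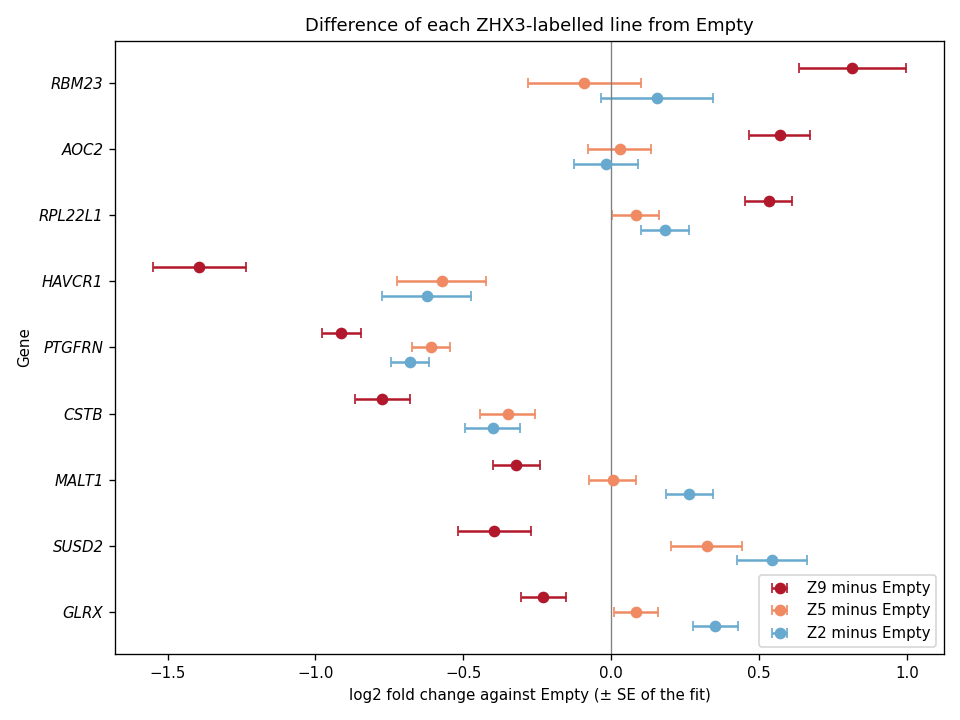
Log2 fold change against Empty (x axis, with the SE of the edgeR fit as bars) of each gene (y axis) in Z9, Z5 and Z2. HAVCR1, PTGFRN and CSTB lie left of 0 in all 3 lines, RBM23, AOC2 and RPL22L1 lie clearly right of 0 in Z9, and MALT1, SUSD2 and GLRX lie left of 0 in Z9 and right of it in Z2.

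MALT1, SUSD2 and GLRX had their highest means in Z2 and their lowest in Z9. MALT1 stood at 87.2, 84.8 and 85.3 CPM in Z9 wells, at 105, 108 and 110 in Z5, at 113, 151 and 122 in Z2, and at 101, 112 and 108 in Empty. Z9 wells lay close together below the rest, Z5 and Empty wells overlapped, and Z2 b stood above the other Z2 wells. Means were 85.8 ± 1.26 CPM in Z9, 108 ± 2.58 in Z5, 129 ± 20.2 in Z2 and 107 ± 5.45 in Empty (SD, n = 3 wells each). The values that chose it were log2 fold changes of -0.32 for Z9 and 0.26 for Z2 against Empty. Z9 minus Z5 was -0.33 ± 0.080 (SE) and just missed the threshold (edgeR adjusted p = 0.0513). It passed without Z2 a (edgeR adjusted p = 0.0135) or without Z2 b (5.6e-04), and on all wells of both lines with the DESeq2 Wald test (adjusted p = 0.00911), with no filter on low counts (0.0450) or with only Z9 and Z5 fitted (6.69e-04). Z5 minus Empty was 0.0055 (95% interval -0.16 to 0.17, edgeR adjusted p = 0.976). MALT1 lies on chromosome 18 from 58671386 to 58754477 (plus strand), and shares exon bases with 3 RNA genes of the opposite strand (384, 56 and 625 bases).

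SUSD2 stood at 8.98, 11.8 and 12.2 CPM in Z9 wells, at 15.8, 19.1 and 19.4 in Z5, at 18.1, 21.6 and 23.5 in Z2, and at 14.3, 15.7 and 13.4 in Empty. The Z9 wells were lowest, then the Empty wells and then those of Z5 and Z2, which overlapped. Means were 10.99 ± 1.75 CPM in Z9, 18.1 ± 1.99 in Z5, 21.1 ± 2.75 in Z2 and 14.5 ± 1.18 in Empty (SD, n = 3 wells each). SUSD2 was lower in Z9 than in Z5 (-0.72 ± 0.12, SE, edgeR adjusted p = 0.00890), a comparison that did not choose it but shares the Z9 wells. That call was lost without Z5 b (edgeR adjusted p = 0.0625) or Z5 c (0.0676). Z5 minus Empty was 0.32 ± 0.12 (SE, 95% interval 0.070 to 0.58) and missed the threshold (edgeR adjusted p = 0.0816), but passed without Z2 a (0.0478), Z5 a (0.0340) or Z9 a (0.0410), and with only Z5 and Empty fitted (0.0176). The choice used -0.39 for Z9 and 0.54 for Z2 against Empty. SUSD2 lies on chromosome 22 from 24181259 to 24189110 (plus strand), and 1 annotated pseudogene bears its name.

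GLRX stood at 105, 113 and 115 CPM in Z9 wells, at 124, 150 and 141 in Z5, at 151, 181 and 167 in Z2, and at 128, 139 and 124 in Empty. Z5 and Empty wells overlapped, and Z2 lay above and Z9 below both. Means were 111 ± 5.51 CPM in Z9, 138 ± 13.2 in Z5, 166 ± 14.9 in Z2 and 130 ± 8.05 in Empty (SD, n = 3 wells each). GLRX was lower in Z9 than in Z5 (-0.31 ± 0.075, SE, edgeR adjusted p = 0.0457), with the Z9 wells again shared with the choice. That call was lost in 9 of 12 fits with 1 library left out, each Z9, each Empty, Z5 b, Z5 c and Z2 c, with adjusted p up to 0.258. It was also lost on all libraries when genes needed at least 1 CPM in 3 libraries (edgeR adjusted p = 0.0532). Z5 minus Empty was 0.084 (95% interval -0.074 to 0.24, edgeR adjusted p = 0.495), and the values of the choice were -0.23 for Z9 and 0.35 for Z2. GLRX lies on chromosome 5 from 95751319 to 95823005 (minus strand) across RHOBTB3 of the other strand, with which it shares 0 exon bases. RHOBTB3 did not pass the test in Z9 against the other lines (0.034, edgeR adjusted p = 0.722). The annotation holds 3 GLRX pseudogenes, and how reads matching several places were counted is not given in the sources used here. MALT1, SUSD2 and GLRX were chosen through their low Z9 wells, which Z9 minus Z5 shares, so their calls there are a description. Of them, 2 of 3 were called in Z9 minus Z5 in the edgeR fit of all libraries, where 1.52% of all genes were called. Those 232 genes became 653 without Z2 b, 44 without Z5 b, 37 without Z5 c, and 57, 86 and 68 without Z9 a, b and c.

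In each of the 9 genes the 3 Z9 wells lay outside all 9 other wells, as did those of 6.70% of all genes tested, and the choice of members fixes most of this. Among all genes, 19.2% were called in Z9 minus Empty and 5.17% in Z9 minus Z2, with nothing to be read from the members there. Full membership was fragile when a library was left out. The condition was still met by RBM23 in 3, AOC2 in 8, RPL22L1 in 7, HAVCR1 in 5, PTGFRN in 2 and CSTB in 4 of 12 such fits, and by MALT1 in 9, SUSD2 in 8 and GLRX in 5. For RBM23 it was lost except without Empty b, Empty c or Z2 a, for PTGFRN except without Z2 a or Z2 b, and for CSTB except without Empty a, Empty b, Z2 a or Z5 a. AOC2 lost it without Z5 b, Z5 c, Z9 a or Z9 c, and RPL22L1 without Z2 b, Z2 c, Z5 c, Z9 a or Z9 b. HAVCR1 lost it without Z2 b, Z2 c, Z5 b, Z5 c or any Z9 well. MALT1 lost it without Empty a, Empty c or Z2 b, SUSD2 without Empty a, Empty b, Z2 b or Z9 a, and GLRX without Empty a, Empty b, Z2 c, Z5 c or any Z9 well. No member's log2 fold change of Z9 against another line changed sign in these fits. The largest adjusted p reached in the comparisons of the choice was 0.173, for GLRX against Empty, followed by 0.171, for CSTB against Z2.

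Genes related to each member by function were then compared between Z9 and the mean of the other 3 lines. Of 118 listed genes 104 were tested, and 1 rose and 6 fell, which is 6.73% of them against 7.90% of all genes tested. Their median log2 fold change was -0.018, against 0.0056 over all genes. The share called was thus near the background. The lists were chosen with earlier results of these data known, so this is a description. The 1208 calls over all genes became 793 without Z5 b and 484, 423 and 593 without Z9 a, b and c. Leaving out 1 library moved the count of 7 to between 2 (without Z9 b or Z9 c) and 13 (without Z2 b). It was 3 without Empty a, Z5 a, Z5 b, Z5 c or Z9 a, it was 4 without Empty b, Empty c or Z2 c, and it was 11 without Z2 a.

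Among RBM23 relatives, 0 of 10 tested genes passed, with a median of -0.0018. The paralog RBM39 was at 592 ± 35.7 CPM in Z9, 596 ± 14.7 in Z5, 644 ± 38.3 in Z2 and 585 ± 14.1 in Empty (Z9 against the mean of the others -0.038, edgeR adjusted p = 0.670). The smallest p-values were those of the splicing factors SF3B1 (-0.17, edgeR adjusted p = 0.0624) and SF1 (0.12, 0.0985) and of DDA1 (0.10, 0.204), a subunit of the DCAF15 ligase. SF3B1 passed without Z2 a (0.0193) or Z2 b (0.0188) and with the DESeq2 Wald test (adjusted p = 0.0312), and SF1 without Z2 b (0.0492).

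Of 11 tested amine oxidases and partners on the AOC2 list, 2 fell, opposite in sign to AOC2. LOX, the collagen cross-linking enzyme lysyl oxidase, was at 100 ± 5.65 CPM in Z9, 134 ± 17.6 in Z5, 134 ± 22.8 in Z2 and 169 ± 9.21 in Empty (-0.53 ± 0.10, SE, edgeR adjusted p = 0.00798). The aldehyde dehydrogenase ALDH2 fell less (-0.17, edgeR adjusted p = 0.0443), was close in Z9 and Z2 (93.9 ± 3.78 and 92.2 ± 6.37 CPM) and lost the call in 10 of 12 fits with a library left out, all but those without Z2 a or Z2 b. LOXL2 was at -0.31 (edgeR adjusted p = 0.213). On the RPL22L1 list 0 of 5 tested paralogs passed, with values of -0.083 for RPL26L1 (edgeR adjusted p = 0.517) and -0.014 for RPL7L1 (0.878).

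Of 11 tested receptors and bridges for phosphatidylserine on the HAVCR1 list, 1 fell. This was PROS1, protein S, which bridges phosphatidylserine to TAM receptors, at 94.1 ± 1.62 CPM in Z9, 115 ± 1.71 in Z5, 118 ± 3.70 in Z2 and 110 ± 3.21 in Empty (-0.28 ± 0.038, SE, edgeR adjusted p = 3.07e-04). The PROS1 and LOX calls held in all 12 fits with a library left out. Set against single lines, PROS1 was called lower in Z9 each time, but LOX only against Empty (-0.75, edgeR adjusted p = 9.37e-04). LOX was at -0.42 against both Z2 (edgeR adjusted p = 0.0627) and Z5 (0.117). Against the mean of the others, the TAM receptors MERTK (0.11, edgeR adjusted p = 0.205) and TYRO3 (0.11, 0.314) did not pass. HAVCR2, or TIM-3, was barely detected, at 0.257 ± 0.0340 CPM in Z9, 0.290 ± 0.0904 in Z5, 0.489 ± 0.339 in Z2 and 0.461 ± 0.183 in Empty (edgeR adjusted p = 0.341).

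On the PTGFRN list of EWI proteins and tetraspanins, 1 of 9 tested genes rose. TSPAN8, a tetraspanin of low level here, was at 2.54 ± 0.512 CPM in Z9, 2.03 ± 0.211 in Z5, 1.96 ± 0.464 in Z2 and 1.41 ± 0.209 in Empty (0.52 ± 0.15, SE, edgeR adjusted p = 0.0430). The call held in 4 of 12 fits with a library left out, those without Empty b, Z2 a, Z2 b or Z9 a. Set against single lines, TSPAN8 was called against Empty (0.85, edgeR adjusted p = 0.00495) but not Z2 (0.38, 0.231) or Z5 (0.33, 0.443). Against the mean of the others, the EWI relatives IGSF3 (0.37, edgeR adjusted p = 0.0581) and IGSF8 (-0.067, 0.593) did not pass. Nor did the integrin ITGA3 (-0.33, 0.147). IGSF3 passed without Empty c (0.0399) and with the DESeq2 Wald test (adjusted p = 0.0424).

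Of 12 tested cystatins and cathepsins, 1 fell. CST3, the secreted cystatin C, was at 477 ± 20.7 CPM in Z9, 533 ± 13.5 in Z5, 546 ± 46.8 in Z2 and 529 ± 10.3 in Empty (-0.17 ± 0.050, SE, edgeR adjusted p = 0.0467), a call that held in 2 of 12 fits, those without Z2 a or Z2 b. The lysosomal proteases LGMN (-0.13, edgeR adjusted p = 0.0956) and CTSB (0.13, 0.101) and the cystatin A gene CSTA (0.24, 0.400) did not pass, though LGMN passed without Z2 a (0.0321) and CTSB with the DESeq2 Wald test (adjusted p = 0.0484). Against Empty alone CTSB, a target of cystatin B, rose in Z9 (1059 ± 45.7 CPM in Z9 and 837 ± 34.7 in Empty, 0.34, edgeR adjusted p = 5.12e-04). In Z5 and Z2 CTSB stood at 1021 ± 54.9 and 1062 ± 40.4 CPM.

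None of 20 tested partners and substrates of MALT1 passed, with a median of 0.037. BCL10 was at 15.8 ± 1.89 CPM in Z9, 16.0 ± 1.34 in Z5, 16.1 ± 1.68 in Z2 and 16.1 ± 0.897 in Empty. The smallest p-values were those of RNF31 (0.11, edgeR adjusted p = 0.114), CARD14 (0.33, 0.122) and the kinase MAP3K7 (-0.12, 0.122), of which CARD14 passed without Z2 a (0.0408). On the SUSD2 list SUSD1 fell slightly (-0.15, edgeR adjusted p = 0.0477), 1 of 6 tested, a call that held in 2 of 12 fits with a library left out, those without Z2 a or Z2 b. The SUSD1 call was also lost with no filter on low counts (edgeR adjusted p = 0.078). The galectin-1 gene LGALS1, partner of SUSD2, was at 156 ± 21.7 CPM in Z9, 174 ± 18.2 in Z5, 191 ± 9.85 in Z2 and 127 ± 11.99 in Empty (-0.053, edgeR adjusted p = 0.742). ISM1 was at -0.16 (0.480).

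Of 20 tested thiol and glutathione genes on the GLRX list, 1 fell. PRDX1, a peroxiredoxin that reduces hydrogen peroxide, was at 332 ± 7.46 CPM in Z9, 335 ± 7.95 in Z5, 353 ± 8.31 in Z2 and 441 ± 28.1 in Empty (-0.17 ± 0.044, SE, edgeR adjusted p = 0.0258), so most of its difference was from Empty. The call was lost without Z9 a (0.0814), Z9 b (0.164) or Z9 c (0.0712). Thioredoxin TXN (-0.14, edgeR adjusted p = 0.0558) and PRDX3 (-0.14, 0.0647) did not pass, but TXN passed without any 1 Z2 well (0.0284 to 0.0455) and PRDX3 without Z2 b (0.0246), and both passed with the DESeq2 Wald test (adjusted p = 0.0246 for TXN and 0.0313 for PRDX3). The other glutaredoxins did not pass either, with 0.036 for GLRX2 (edgeR adjusted p = 0.792), -0.084 for GLRX3 (0.211) and -0.024 for GLRX5 (0.848).

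**Figure D3:**
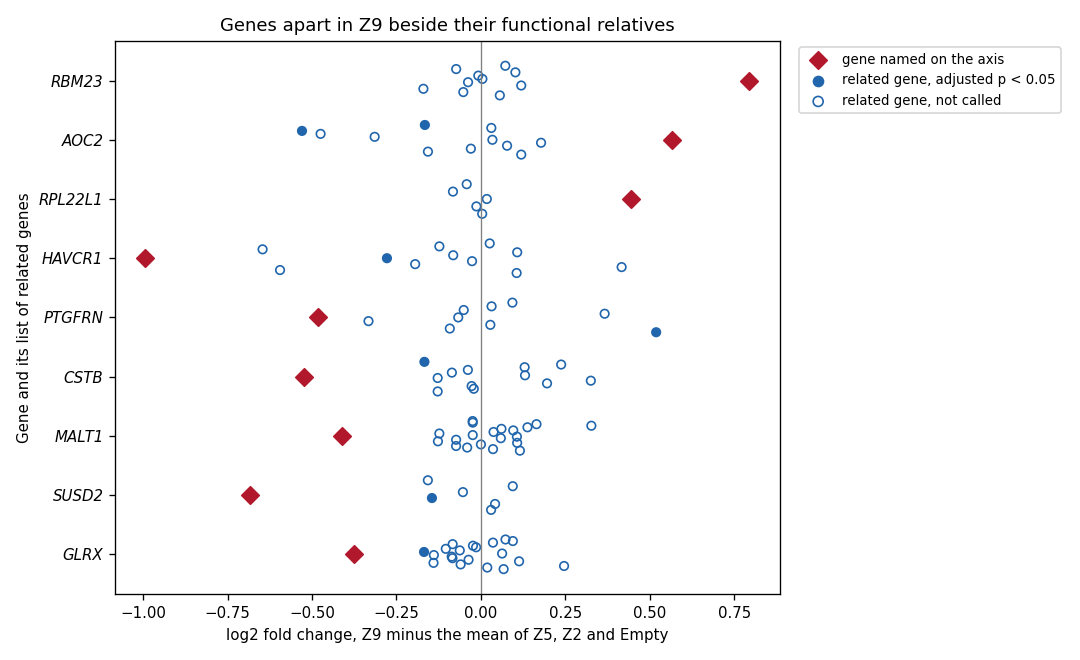
Log2 fold change of Z9 against the mean of Z5, Z2 and Empty (x axis) for each of the 9 genes (diamonds) and the tested genes on its list of relatives (circles, filled where the edgeR adjusted p is under 0.05), in 1 row per list (y axis). Each diamond lies to the outer side of nearly all circles of its row, which follows from how the 9 genes were chosen, and 7 of 104 circles are filled.

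The 5 tested genes on each side of each member along its chromosome were compared in the same way. Distances are between the lower RefSeq coordinates of the genes, whatever their strand. Of 90 neighbours 10 were called, 2 higher and 8 lower, beside 7.90% of all genes. Some of the 90, among them AOC3, TIMD4, HAVCR2 and IGSF3, are also on the lists of relatives. None of the 10 neighbours of RBM23, PTGFRN or CSTB passed. Around AOC2, BECN1, an autophagy gene 34.4 kb away, rose by 0.17 (edgeR adjusted p = 0.0344). G6PC, the glucose-6-phosphatase catalytic subunit 56.2 kb away, rose by 0.81 (edgeR adjusted p = 0.00331), while AOC3 and PSME3 next to AOC2 did not pass. Against Empty alone G6PC rose more in Z9 (1.78, edgeR adjusted p = 1.37e-05), so much of its difference was from Empty. Around RPL22L1 the 2 called genes, PRKCI (-0.24, edgeR adjusted p = 0.0295) at 642 kb and PLD1 (-0.18, 0.0303) at 736 kb, fell, opposite to RPL22L1. Of the 10 tested genes around HAVCR1, 3 fell with it. They were CNOT8 (-0.20, edgeR adjusted p = 0.00650), a deadenylase subunit, the Mediator subunit MED7 (-0.33, 0.0186) and the protease ADAM19 (-0.44, 0.0387). Their lower coordinates lie 2171, 108 and 448 kb from that of HAVCR1. GGT5, the next tested gene after SUSD2 and 38.2 kb away, fell with it (-0.56, edgeR adjusted p = 0.0121). LMAN1, 656 kb from MALT1, fell (-0.14, edgeR adjusted p = 0.0489), and so did MCTP1, 1110 kb from GLRX (-0.87, 0.0190). The G6PC call alone held in every fit with a library left out. GGT5 was lost without Z9 a (0.0983), CNOT8 without Z9 b (0.0539) or Z9 c (0.0558), MED7 without Z9 a (0.0774) or Z9 c (0.128), and MCTP1 without any 1 Z9 well (0.0562 to 0.0903). BECN1, PRKCI, PLD1, ADAM19 and LMAN1 were lost without any 1 Z9 well and without some wells of other lines. The count of 10 was then between 2 (without Z9 a or Z9 c) and 13, with 3 without Z9 b and 6 without Empty b, Z5 b or Z5 c. With no filter on low counts the LMAN1 call was lost too (edgeR adjusted p = 0.0733).

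**Figure D4:**
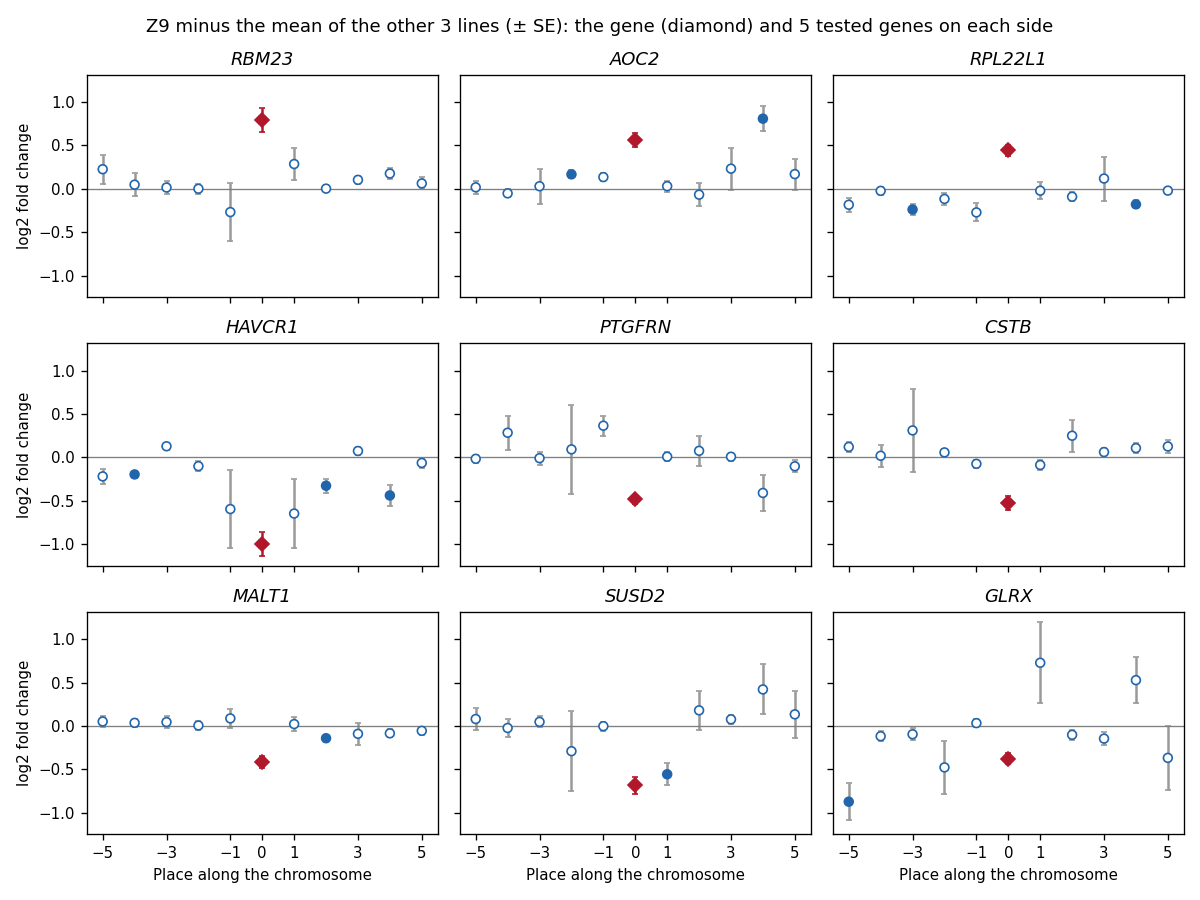
Log2 fold change of Z9 against the mean of the other 3 lines (y axis, with the SE of the edgeR fit) of each of the 9 genes (diamond) and of the 5 tested genes on each side in chromosome order (x axis, place and not distance). Filled circles mark the 10 of 90 neighbours with an edgeR adjusted p under 0.05, of which 3 are in the HAVCR1 panel.

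Across the 12 wells the members fell into groups, as their choice led to. Pearson's r of log2 CPM, a description over 12 wells that share lines and libraries, was 0.962 between HAVCR1 and CSTB, 0.942 between SUSD2 and GLRX and 0.922 between MALT1 and GLRX. With each line's mean removed, r was 0.745 for HAVCR1 and CSTB, 0.813 for SUSD2 and GLRX and 0.631 for MALT1 and GLRX. It was highest for CSTB and SUSD2 (0.890), so these pairs also varied together between wells of a line. Within lines RPL22L1 ran opposite to SUSD2 (r = -0.789), CSTB (-0.741) and GLRX (-0.680). For PTGFRN, r over all wells was 0.845 with HAVCR1 and 0.877 with CSTB, against -0.121 and 0.154 with each line's mean removed. RBM23 and AOC2 had r = 0.740 over all wells and -0.117 within lines. The genes most like each member by this measure were IL18BP (0.886), ZNF251 (0.875) and MX2 (0.869) for RBM23, and ZMIZ2 (0.924), EMD (0.918) and ZFPM1 (0.916) for AOC2. For RPL22L1 they were SLC38A5 (0.949), RPS6KB1 (0.945) and HGD (0.929). HAVCR1 was most like LOX (0.961), MOGAT2 (0.955) and TSPAN14 (0.945), and CSTB most like LRG1 (0.968), TMC6 (0.960) and again TSPAN14 (0.958). PTGFRN was most like ABAT (0.971), ADGRL2 (0.965) and PDIA5 (0.965). MALT1 was most like VMP1 (0.971), EXOC5 (0.959) and CFAP36 (0.955), SUSD2 most like CEBPD (0.948), SERPINI1 (0.948) and C4orf3 (0.946), and GLRX most like ASPH (0.964), DQX1 (0.947) and LAMB1 (0.945).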

How the data were processed

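RNA was sequenced from 12 wells of 4 HepG2 lines, grouped by their titles. The deposited table holds whole-number counts of reads for each gene symbol, made with STAR and featureCounts on hg38, per the submitters' processing notes. No version, annotation, strand setting or treatment of reads with several matches is given in the sources used here. Counts were tested with edgeR 4.0.16 (R 4.3.3): filterByExpr by line left 15289 of 26485 genes, TMM (trimmed mean of M values) scaled the libraries, and a robust quasi-likelihood model of 4 line means was fitted to all 12 libraries. The Benjamini-Hochberg adjustment ran over all genes tested, and an adjusted p under 0.05 was called. Each SE was obtained as the log2 fold change over the root of F, and 95% intervals use the test's degrees of freedom. CPM use TMM-scaled totals, and correlations use log2 CPM with a prior count of 2.

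The members, lists of relatives and markers were chosen with earlier results of these data known. From each list up to 3 genes of smallest p are named, with direct paralogs, neighbours called in the member's direction, and 3 genes of highest r. PRKCI and PLD1 fall outside this rule and were named after their values were seen, as were SRXN1, STAB1, MFGE8 and ITGB1. Symbols matched RefSeq by current name for 23758 genes and by a unique synonym for 1525. Gene spans of the members are from GENCODE 29 on GRCh38, which need not match the authors' annotation. The order and distances of neighbours use RefSeq. Chi-square per degree of freedom between wells of 1 line was 6.01 to 43.0, where 1 is sampling noise, so no well repeated another. The highest values were those of Z2 b, 43.0 with Z2 a and 30.2 with Z2 c. Z2 a and Z2 c gave 14.0, and pairs in the other lines gave at most 19.5. Alternatives were DESeq2 1.42.0 size factors and Wald test, 2 other filters, a block for the replicate letter, fits restricted to the lines compared, and each library left out.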

Additional observations from a re-analysis of the deposited data

Results flagged for a closer look

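Some differences from Empty were not the same size in 2 of the guide lines, by a test of the difference itself (edgeR adjusted p under 0.05 over all genes). SUSD2 was lower in Z9 than in Z5 by a log2 fold change of -0.72 and GLRX by -0.31, though the Z9 wells also served in choosing both. PROS1 was lower in Z9 than in Z2 (-0.33, edgeR adjusted p = 0.00173) and than in Z5 (-0.28, 0.00466). The other genes differed between Z9 and Z2: LGMN (-0.20), PRKCI (-0.32), PLD1 (-0.25), CNOT8 (-0.20), MED7 (-0.43), ADAM19 (-0.66) and GGT5 (-0.56), each lower in Z9. They had been named through Z9 minus the mean of the others, which shares the Z9 and Z2 wells, so these values are descriptions. In Z9 minus Z2, 5.17% of all genes tested and 5.77% of the tested relatives were called. Of the listed relatives not named in the report, SRXN1 was higher in Z9 than in Z2 (0.25, edgeR adjusted p = 0.0276), and STAB1 (-1.02, 0.0408), MFGE8 (-0.36, 0.0305) and ITGB1 (-0.26, 0.0357) were lower. STAB1 was barely detected, at 0.393 ± 0.0805 CPM in Z9 and 0.803 ± 0.176 in Z2. No group had the 4 samples that a search for single outlying wells would need, though the largest differences between wells of 1 line were those of Z2 b.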

How the results depend on the processing

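Z9 minus the mean of the other 3 lines kept its direction and call for all 9 genes under all 17 alternatives. Z9 minus Empty did so under all 18 for RBM23, AOC2, RPL22L1, HAVCR1, PTGFRN, CSTB and MALT1. Both reuse the wells of the choice, so this is a description. Of the comparisons that made the choice, Z9 minus Z2 lost its call in 12 of 18 alternatives for PTGFRN and in 10 of 18 for RBM23. Counts of genes called also moved. The DESeq2 Wald test called 1526 genes in Z9 minus Z2, 504 in Z9 minus Z5, 11 in Z5 minus Z2 and 12 related genes. With the replicate letter as a block these were 1512 in Z9 minus Z2, 488 in Z9 minus Z5 and 12 related genes, but wells with the same letter did not deviate together across every pair of lines (r from -0.101 to 0.173), so the letters were not taken as pairs. Same-letter wells correlated above all other pairs for Empty and Z2 (at least 0.0806 against at most 0.0562) and for Z5 and Z9 (0.0599 against 0.0392), but not for the other 4 pairs of lines. Under the block RPL22L1 passed in Z2 minus Empty (0.18, edgeR adjusted p = 0.0402), SUSD2 in Z5 minus Empty (0.0149) and MALT1 in Z9 minus Z5 (0.0142), and SF3B1 (0.0463), IGSF3 (0.0426), CTSB (0.0419), TXN (0.0391) and PRDX3 (0.0295) in Z9 minus the mean of the others. Fits of only the lines compared called 32 in Z9 minus Z2, 664 in Z9 minus Z5 and 2390 in Z2 minus Empty. With each library left out, counts ranged from 1720 (without Empty a) to 4048 in Z9 minus Empty, 75 (without Z9 b) to 2399 (without Z2 a) in Z9 minus Z2, 37 to 653 in Z9 minus Z5, 423 to 1677 in Z9 minus the mean of the other lines, 2130 to 4411 in Z2 minus Empty, 1087 to 3267 in Z5 minus Empty, 1 to 153 in Z5 minus Z2, 2 to 13 related genes and 2 to 13 neighbours.

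Signs turned only in differences near 0 that were not called. With a library left out, ranges were -0.055 to 0.43 for RBM23 and -0.049 to 0.012 for AOC2 in Z2 minus Empty, and -0.30 to 0.18 for RBM23, -0.0024 to 0.059 for AOC2 and -0.034 to 0.039 for MALT1 in Z5 minus Empty, where MALT1 was -0.0021 with no filter. In Z5 minus Z2 they were -0.16 to 0.0020 for RPL22L1, -0.073 to 0.19 for HAVCR1 and -0.013 to 0.13 for CSTB. In Z9 minus the mean of the others they were -0.0052 to 0.081 for AOC3, -0.12 to 0.021 for IGSF8, -0.12 to 0.057 for BCL10, -0.058 to 0.012 for GLRX5 and -0.13 to 0.056 for LGALS1. The conditions that chose the genes were lost by RBM23, AOC2, RPL22L1, HAVCR1, PTGFRN, CSTB and MALT1 when only the lines compared were fitted, and by PTGFRN with no filter. The cause was not tested. Limits: 1 line per guide, 3 wells per line, and low counts for RBM23 and HAVCR1.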
